A study of Sus scrofa with 2 samples.

Results

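The miR-99, miR-100 and miR-125 families were compared between a glycolytic and an oxidative skeletal muscle of the pig. The glycolytic muscle was the *longissimus dorsi* of the back, called LDM, and the oxidative one was the *psoas major* of the loin, called PMM. Members were taken by name. Every pig (ssc) entry numbered miR-99a, miR-99b, miR-100, miR-125a or miR-125b was included, whichever arm of the hairpin it came from, which gave 10 of the 668 entries of the table, ssc-miR-100-5p among them. These were the 5p and 3p arms of miR-99a, miR-99b, miR-100, miR-125a and miR-125b-1. LDM and PMM came from the same 3 unrelated female Landrace pigs, reared alike and slaughtered at 210 days old after a fast, with no treatment or genetic change. Per the study's methods, RNA of the pigs was mixed in equal amounts within each muscle and each mixture gave 1 small RNA library, so the spread between animals was not measured. All intervals below are 95% intervals that cover counting error only, and differences between the muscles carry no p-value.

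A miRNA is a short RNA cut from a hairpin precursor, and its bases 2 to 8, the seed, pair with target mRNAs. The hairpin's 5p and 3p arms can each give a mature miRNA, of which a single one usually predominates. miR-100, let-7 and miR-125 lie together in a gene cluster that is shared by most animals, and mammals carry several copies of it. miR-99a, miR-99b and miR-100 are copies of a single ancestral miRNA and are known in mammalian cells to repress the growth kinase mTOR. miR-125a and miR-125b are the relatives of lin-4, the worm miRNA that times larval development, and in mouse muscle miR-125b is known to repress IGF2, a growth factor that promotes myoblast differentiation.

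The consensus sequences of the 5p members are shown because they set which members share targets and which are hard to tell apart. They are given 5′ to 3′ as deposited, in DNA letters, with the seed in capitals.
miR-99a-5p: aACCCGTAgatccgatcttgt
miR-100-5p: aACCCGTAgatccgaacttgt
miR-99b-5p: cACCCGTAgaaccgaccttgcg
miR-125a-5p: tCCCTGAGaccctttaacctgt
miR-125b-1-5p: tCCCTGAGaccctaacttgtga

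The 5p members fell into 2 seed groups. miR-99a-5p, miR-100-5p and miR-99b-5p shared one seed, miR-125a-5p and miR-125b-1-5p shared the other, and 0 of the remaining entries of the table had either seed at bases 2 to 8. miR-99a-5p and miR-100-5p differed at 1 of 21 positions, T16A (miR-99a has the first base, miR-100 the second, counted from the 5′ end). A read that stops before that base, or carries an error there, fits both. miR-99b-5p differed from miR-100-5p at 4 of 21 positions (A1C, T11A, A16C and T21C, with the base of miR-100 first). miR-125b-1-5p and miR-125a-5p were identical over their first 13 bases. The sources used here do not give how the authors divided reads between such near copies.

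Summed over the 668 entries, there were 7603850 reads in LDM and 8556672 in PMM. For this, LDM values were divided by the 1.15 units that 1 read is worth there. Reads outside these entries are not included. Levels are given as normalised reads, the authors' deposited values, or as RPM, normalised reads per 1000000 of the library's total over these entries. Shares of a library refer to the same total unless stated. The extraction protocol in the labels names adipose tissue, whereas the sample labels name the 2 muscles. Striated muscle miRNAs (miR-1, miR-133a, miR-133b, miR-206, miR-208b and miR-499, all 6 found) held 68.6% of LDM and 51.2% of PMM. The markers of other cells are given beside the family results below.

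The miR-99 and miR-100 family was first described by its level. miR-99a-5p had 3651 normalised reads in LDM and 5575 in PMM. The ratio of PMM to LDM was 1.53 (1.46 to 1.60), the largest among the 5p members, and it stayed above 1 under every scaling tried. miR-100-5p had 3486 normalised reads in LDM and 4191 in PMM, a ratio of 1.20 (1.15 to 1.26) that fell below 1 under 3 of the 4 other scalings. From these same libraries the study described miR-100 as highly expressed in PMM, so the direction of miR-100 as deposited is not independent evidence. miR-99b-5p had 1429 and 1476 normalised reads, a ratio of 1.03 whose interval included 1 (0.957 to 1.11). In LDM miR-99a-5p and miR-100-5p were therefore nearly level, while in PMM miR-99a-5p stood clearly above miR-100-5p, and miR-99b-5p was the lowest of the family in both libraries. Summed over the 3 members, the 5p arm added up to 8566 normalised reads in LDM and 11242 in PMM, or 979 RPM and 1314 RPM. The ratio of 1.31 (1.27 to 1.35) fell below 1 after centring on the median ratio and stayed above 1 under the other scalings tried.

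The miR-125 family was the more abundant of the 2. miR-125b-1-5p had 9750 normalised reads in LDM and 10447 in PMM, where it ranked 34 and 37 among all entries. Its ratio of 1.07 (1.04 to 1.10) fell below 1 under 3 of the 4 other scalings. miR-125a-5p had 6244 and 7016 normalised reads, with a ratio of 1.12 (1.08 to 1.16) that fell below 1 under the same scalings. The sum of the family went from 15994 to 17463 normalised reads, a ratio of 1.09 (1.07 to 1.12), which likewise fell below 1 under these scalings. Both members thus lay within a narrow band of ratios, and their order of level was the same in LDM and PMM. The sum held 0.183% of LDM reads (exact Clopper-Pearson interval 0.180 to 0.186) and 0.204% of PMM reads (0.201 to 0.207), against 0.0979% (0.0957 to 0.1001) and 0.131% (0.129 to 0.134) for miR-99 and miR-100. Reads of different miRNAs are compared here as deposited. Adaptor ligation depends on sequence and was not corrected, so the order of levels between miRNAs is less certain than a ratio of the same miRNA between libraries.

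**Figure D1:**
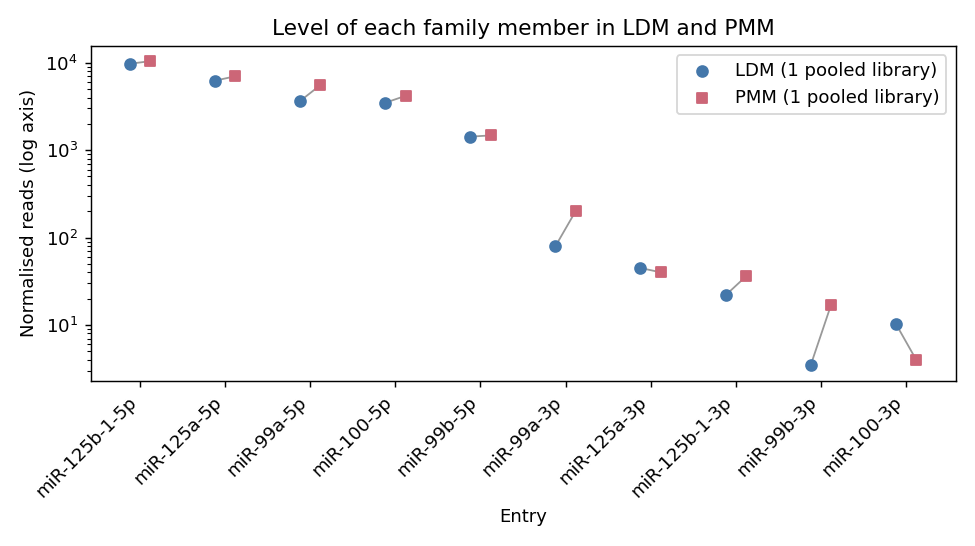
Normalised reads (log axis) of the 10 family members in LDM (blue circles) and PMM (red squares), 1 pooled library per muscle, in order of their summed level. The 5p arms lie at 1429 or above and the 3p arms at 202 or below, and the widest step among the 5p arms is that of miR-99a-5p, from 3651 to 5575.

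The members were then set against all entries of the table. For log2 ratios a pseudocount of 1 RPM (8.65 units at the mean library size) was used, and entries averaging at least 10 RPM were counted. Of the 10 members, 6 passed this filter, the 5p arms and miR-99a-3p, and the latter only through PMM, with 9.07 RPM in LDM and 23.6 RPM in PMM. Only miR-99a-3p was at least 2-fold higher in PMM, 1 of 6 members, against 21.6% of the 185 entries counted. At least 2-fold higher in LDM were 0 of 6 members, against 6.49% of all entries. All 6 had a ratio above 1 as deposited, as had 71.4% of the entries counted. The 91 entries averaging at least 100 RPM were used to find the middle of these libraries, and their median log2 ratio was 0.47, a ratio of 1.39. Of the 6 members 2 were above it, against 45.4% of the entries counted. Only miR-99a-5p of the 5p members lay above that median (log2 ratio 0.61, position 37 of 91 from the highest ratio). miR-100-5p (0.27) stood at position 53, miR-125a-5p (0.17) at 59, miR-125b-1-5p (0.10) at 66 and miR-99b-5p (0.046) at 68. Relative to the middle of these libraries, these 4 were thus lower in PMM, and the sign of their difference depended on the scaling.

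**Figure D2:**
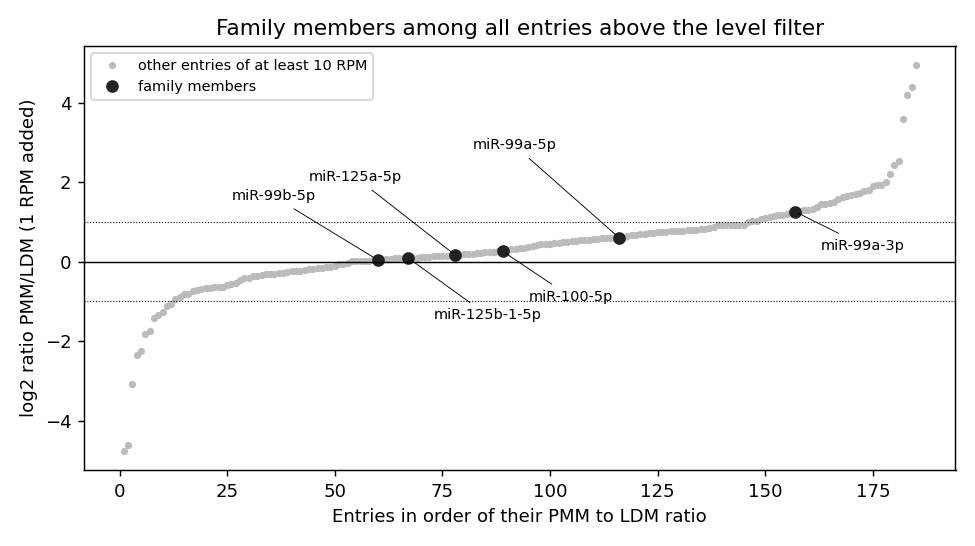
The 185 entries averaging at least 10 RPM in order of their log2 ratio of PMM to LDM (1 RPM added to both), with the 6 family members above that level as black points and dotted lines at a 2-fold difference. The 5p members lie between 0.046 and 0.61 in the middle of the order, and miR-99a-3p lies at 1.26.

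Markers of other cells moved between the libraries as well. miR-126 of endothelium had a summed ratio of PMM to LDM of 1.99, the fibroblast miRNAs miR-199a and miR-199b one of 2.16 (2 of 3 listed markers found), and miR-143 with miR-145 of smooth muscle one of 1.68 (2 of 2), carried by miR-143-3p (log2 ratio 0.79) rather than miR-145-5p (0.12). miR-451 of red blood cells had 1.18 (1 of 3), and miR-142 with miR-155 of leukocytes 1.56 (2 of 3). These ratios are of normalised reads as deposited. Markers of epithelium (miR-205 and miR-429, 2 of 6), liver (miR-122) and nerve (miR-9, 1 of 2) were low, at 0.921 to 22.4 RPM. Their summed ratios were 0.435 for epithelium, 1.24 for liver and 5.96 for nerve, for which LDM had 3.68 RPM and PMM 22.4 RPM. Striated muscle markers had a summed ratio of 0.730, which miR-1-3p, miR-133a-3p and miR-133b-3p carried. In contrast, miR-133a-5p (log2 ratio 0.43), miR-206-3p (0.47), miR-208b-3p (0.75) and miR-499-5p (3.60) had ratios above 1. The ratios of miR-99a-5p (1.53) and miR-100-5p (1.20) lay between those of red blood cells and fibroblasts, and those of the other 5p members lay below that of red blood cells. The part of these cells in the family values was not tested, and in RNA of whole muscle a change in the number of cells of a type cannot be told apart from a change in RNA per cell.

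The balance of the members within each library does not depend on the scaling between libraries, since a common factor cancels. Of the 5p reads of both families, miR-99a-5p held 14.9% in LDM (14.4 to 15.4) and 19.4% in PMM (19.0 to 19.9). miR-125b-1-5p held 39.7% (39.0 to 40.4) and 36.4% (35.8 to 37.0). miR-125a-5p went from 25.4% (24.8 to 26.0) to 24.4% (23.9 to 24.9), miR-100-5p from 14.2% (13.7 to 14.7) to 14.6% (14.19 to 15.01), and miR-99b-5p from 5.82% (5.51 to 6.14) to 5.14% (4.89 to 5.40). The gain of miR-99a-5p was the main shift. With it, miR-99 and miR-100 together held 34.9% (34.2 to 35.5) of these reads in LDM and 39.2% (38.6 to 39.7) in PMM.

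**Figure D3:**
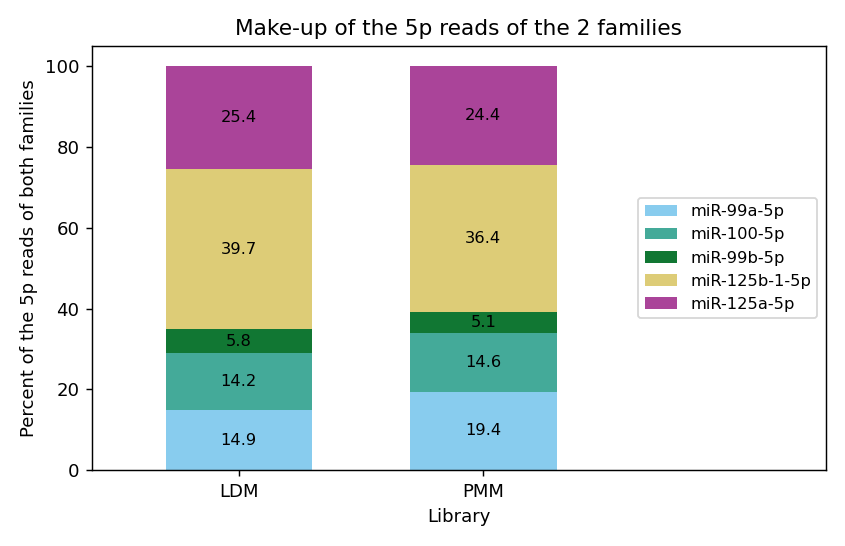
Share of each member in the 5p reads of both families, in percent, in LDM and PMM (1 pooled library each; numbers in the bars are the percentages). The light blue part at the base, miR-99a-5p, is 14.9% in LDM and 19.4% in PMM, and the part of miR-125b-1-5p is 39.7% and 36.4%.

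All 10 pairs of 5p members were compared in the same way. miR-99a-5p had 1.05 reads for each read of miR-100-5p in LDM and 1.33 in PMM, a change of 1.27-fold (1.19 to 1.35). Against miR-99b-5p the quotient of miR-99a-5p went from 2.55 to 3.78, a change of 1.48-fold (1.35 to 1.61), the largest of the 10. The quotient of miR-100-5p to miR-99b-5p went from 2.44 to 2.84 (1.16-fold, 1.06 to 1.27). Within the seed family the order of gain in PMM was therefore miR-99a, miR-100 and miR-99b, and each neighbouring pair in that order differed by more than counting error. In the miR-125 family the quotient of miR-125b-1-5p to miR-125a-5p was 1.56 in LDM and 1.49 in PMM, a change of 0.954-fold (0.911 to 0.998) at the edge of its counting error. miR-125b-1-5p and miR-99b-5p did not differ beyond counting error (1.04-fold, 0.956 to 1.13), the 1 pair of 10 whose interval included 1. That of miR-125a-5p to miR-99b-5p all but touched 1 (1.09-fold, 1.00005 to 1.18).

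The families were next arranged by gene cluster. Per the RefSeq gene table of assembly Sscrofa11.1, which is not the authors' build, MIR99A lies beside MIRLET7C, MIR100 beside MIRLET7A-1 and MIR125B-1, and MIR99B beside MIRLET7E and MIR125A. MIR99A lies within a protein-coding gene with no assigned name and MIR125B-1 within a long noncoding RNA gene. All 5 precursors were found by name there. In human and mouse a second miR-125b hairpin in the miR-99a cluster gives the same mature 5p sequence. MIR125B-1 was the 1 MIR125B gene matched in that table. Because of the second hairpin in human and mouse, miR-125b-1-5p was nevertheless left out of the cluster sums and treated by itself.

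The sums cover both arms of the family members only and leave out the let-7 neighbours. The miR-99a cluster, here miR-99a alone, had 3731 normalised reads in LDM and 5777 in PMM, a ratio of 1.55 (1.48 to 1.62). The miR-100 cluster, with miR-100 and miR-125b-1-3p, had 3518 and 4231, a ratio of 1.20 (1.15 to 1.26) that fell below 1 under 3 of the 4 other scalings. The miR-99b cluster, with miR-99b and miR-125a, had 7721 and 8549, a ratio of 1.11 (1.07 to 1.14) that fell below 1 under the same scalings. The interval of the miR-99a cluster overlapped neither of the others, and those of the miR-100 and miR-99b clusters did not overlap either. The miR-100 sum leaves out miR-125b-1-5p (9750 and 10447 normalised reads), which outweighs it and had a ratio of 1.07, below that of the miR-99b cluster. The miR-99b sum keeps miR-125a-5p, which makes up most of it. The gap between the miR-100 and miR-99b sums therefore depends on this choice and does not describe the whole clusters. let-7a-1-5p (65131 and 95080 normalised reads) also outweighs the miR-100 sum, and let-7c-5p (3776 and 7968) the miR-99a sum. None of the sums therefore gives the ratio of a whole cluster.

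The let-7 neighbours, shown with the same marking, served as a reference. let-7 is the miRNA that times development downstream of lin-4 in the worm, and the sequences are given because their small differences limit how reads can be assigned.
let-7a-1-5p: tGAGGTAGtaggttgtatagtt
let-7c-5p: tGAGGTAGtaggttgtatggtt
let-7e-5p: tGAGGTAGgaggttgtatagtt

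let-7c-5p, the neighbour of miR-99a, had 3776 normalised reads in LDM and 7968 in PMM (ratio 2.11, 2.03 to 2.20). let-7a-1-5p, named for the gene beside MIR100 but made with the same sequence from other let-7a genes of mammals too, had 65131 and 95080 (1.46, 1.44 to 1.48). let-7e-5p, the neighbour of miR-99b, had 1608 and 1631 (1.01, 0.944 to 1.09). The let-7 neighbours therefore stood in the same order of ratio as the miR-99 and miR-100 members beside them, highest in the miR-99a cluster and lowest in the miR-99b cluster. The miR-125 members did not follow this order. miR-125b-1-5p, named for the gene near MIRLET7A-1, had 1.07, and miR-125a-5p, beside let-7e, had the higher ratio of 1.12. let-7a-1-5p and let-7c-5p differ at 1 position, A19G, and let-7a-1-5p and let-7e-5p at 1, T9G, with the base of let-7a first, so a read with an error at that base cannot be told apart. The 3p arms of these neighbours were low, with 25 and 52 reads of let-7e-3p in LDM and PMM, 3 and 3 of let-7a-1-3p, and 0 and 4 of let-7c-3p.

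Each member was also set against its own let-7 neighbour within a library. miR-99a-5p had 0.967 reads for each read of let-7c-5p in LDM and 0.700 in PMM, a change of 0.723-fold (0.681 to 0.768). The quotient of miR-100-5p to let-7a-1-5p went from 0.0535 to 0.0441 (0.824-fold, 0.785 to 0.864), and that of miR-125b-1-5p to let-7a-1-5p from 0.150 to 0.110 (0.734-fold, 0.712 to 0.757). Here the let-7 neighbour gained on the member in PMM. In the miR-99b cluster the balance was steadier. There miR-99b-5p to let-7e-5p was 0.889 in LDM and 0.905 in PMM (1.02-fold, 0.916 to 1.13), and miR-125a-5p to let-7e-5p was 3.88 and 4.30 (1.11-fold, 1.02 to 1.20).

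**Figure D4:**
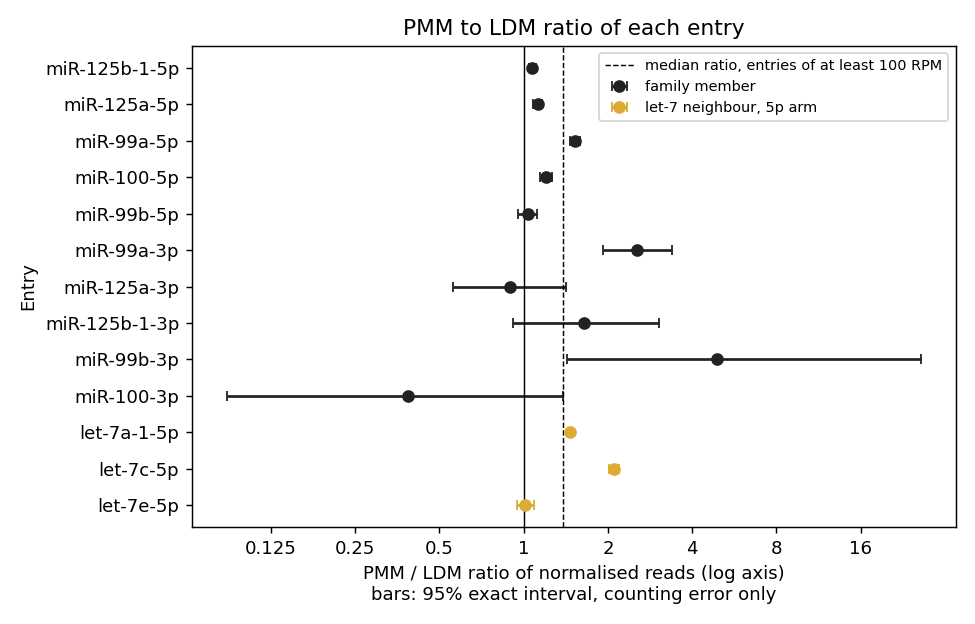
Ratio of PMM to LDM of the 10 family members (black) and the 5p arms of 3 let-7 neighbours (yellow) as deposited, on a log axis, with bars for the 95% exact interval of counting error, a solid line at 1 and a dashed line at the median ratio of 1.39. miR-99a-5p (1.53), let-7a-1-5p (1.46) and let-7c-5p (2.11) lie right of the dashed line, while the other 5p members lie between 1 and the dashed line and would lie below 1 after centring on that median.

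The 3p arms were low in each library. Those of miR-99 and miR-100 are shown because miR-99a and miR-100, whose 5p arms are nearly identical, differ more in this arm.
miR-99a-3p: cAAGCTCGcttctatgggtctgt
miR-99b-3p: cAAGCTCGtgtctgtgggtccgt
miR-100-3p: cAAGCTTGtgtctataggtat

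miR-99a-3p and miR-99b-3p shared bases 2 to 8, and miR-100-3p differed from miR-99a-3p at 5 of 21 positions, C7T within those bases and C9T, T10G, G16A and C20A after them. miR-99a-3p had 69 reads in LDM and 202 in PMM, or 79.4 and 202 normalised reads, a ratio of 2.54 (1.93 to 3.39) that stayed above 1 under every scaling tried. miR-99b-3p had 3 and 17 reads (4.92, 1.42 to 26.2), and miR-100-3p 9 and 4 (0.386, 0.0869 to 1.38). miR-125a-3p had 39 and 40 reads (0.891, 0.559 to 1.42) and miR-125b-1-3p 19 and 36 (1.65, 0.920 to 3.04). At this depth only miR-99a-3p and miR-99b-3p had an interval without 1 among the 3p members. The latter rests on 3 reads in LDM, the smallest number above 0.

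The share of the 3p arm in the reads of its precursor is again free of the scaling. For miR-99a it was 2.13% in LDM (Clopper-Pearson interval 1.66 to 2.69) and 3.50% in PMM (3.038 to 4.003), an odds ratio of 1.67 (1.26 to 2.23). For miR-99b it was 0.241% (0.0497 to 0.703) and 1.14% (0.665 to 1.82), an odds ratio of 4.77 (1.37 to 25.4). The other precursors had 3p shares of at most 0.714% in either library, and the intervals of their odds ratios included 1, at 0.321 (0.0722 to 1.15) for miR-100, 0.793 (0.497 to 1.27) for miR-125a and 1.54 (0.858 to 2.84) for miR-125b-1. In all 5 precursors the 5p arm held nearly all reads. miR-99a had the highest 3p share in both libraries. Both of its arms had ratios above 1, as had both arms of miR-99b and miR-125b-1. The intervals of miR-99b-5p and miR-125b-1-3p included 1.

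**Figure D5:**
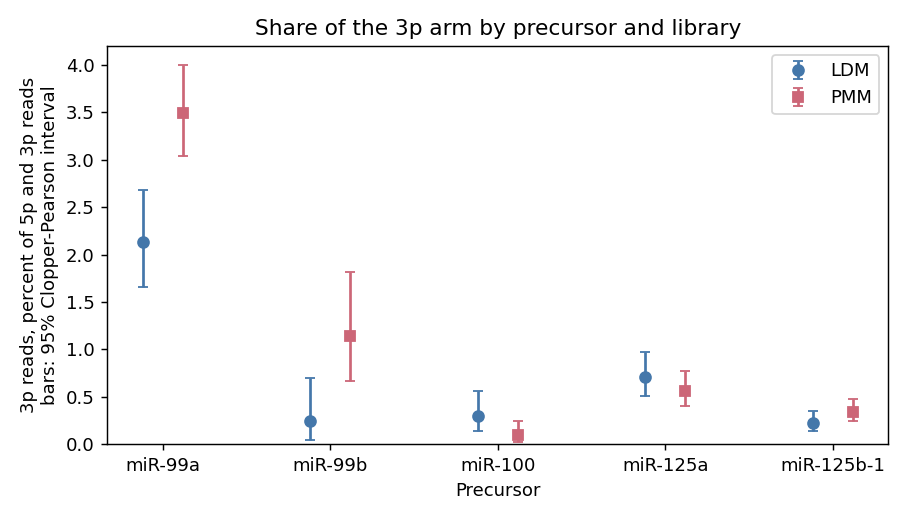
Share of 3p reads among the 5p and 3p reads of each precursor, in percent, in LDM (blue circles) and PMM (red squares), with bars for the 95% Clopper-Pearson interval. miR-99a stands highest, at 2.13% in LDM and 3.50% in PMM, and the intervals of the 2 libraries overlap for every precursor but miR-99a.

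The pig entries of at least 100 RPM with the nearest log2 ratio were listed for each 5p member as a measure of likeness over the 2 libraries. Nearest to miR-99a-5p (0.61) were miR-92a-1-3p (0.60), miR-374a-5p (0.59) and miR-574-3p (0.58). Nearest to miR-100-5p (0.27) were miR-340-5p (0.23), miR-451-5p (0.23) and miR-30d-5p (0.31). miR-125a-5p (0.17) had miR-103-1-3p (0.17), miR-361-5p (0.18) and miR-1271-5p (0.15), and miR-125b-1-5p (0.10) had miR-195-5p (0.10), miR-10b-5p (0.090) and miR-145-5p (0.12). For miR-99b-5p (0.046) they were miR-186-5p (0.021), its cluster neighbour let-7e-5p (0.021) and miR-423-3p (0.0096). Over so few libraries, a like ratio is shared by many entries and describes their values only.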

How the data were processed

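The labels give 1 library for LDM and 1 for PMM, read single-end over 36 bp, and name the build Sscrofa10.2. The read mapper, miRNA reference release and normalisation method are not given in the sources used here. Per the file headers the deposited values are normalised reads, a signal that is never negative. In LDM 423 of 424 values above 0 were whole multiples of 1.15 units, and in PMM 592 of 593 were whole numbers (tolerance 0.001 of a multiple). The smallest value above 0 was 3 in PMM, and that of LDM was taken as 3 reads. The exception, miR-23a-3p, is no member. The authors' p-value column compares the libraries and was not used.

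Ratios were taken from the deposited values with a 95% exact conditional binomial interval of the reads. Quotients of members were compared through the conditional exact interval of the odds ratio, and shares have an exact interval. Without molecular identifiers in the reads, the intervals cover counting error only. No test between muscles was possible with 1 library each. Alternatives were centring on the median ratio of entries of at least 100 RPM, a trimmed mean of log ratios (30% of ratios and 5% of levels trimmed at each end), the total without the 10 highest entries, a pseudocount of 0.1 RPM, other level filters, a limit of 1.5-fold, both arms and other denominators. Equal library totals were added after seeing the data. The text names every member, its let-7 neighbours, other entries with a member's seed (0 found) and the 3 entries nearest in log2 ratio. The members and lists were chosen with earlier results of these data known. Scripts were tested on simulated data. Intervals came from scipy 1.17.1, tables from pandas 2.3.3 and numpy 2.4.6, and plots from matplotlib 3.10.9, under Python 3.11.15.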

Additional observations from a re-analysis of the deposited data

How the results depend on the processing

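The direction of most ratios depended on the scaling, which multiplies every PMM value by a single factor. Centring on the median ratio, a trimmed mean of log ratios and a total that leaves out the 10 highest entries change the log2 ratios of abundant entries by about −0.47, −0.30 and −0.38, and those of the 3p members by less because of the pseudocount. In that order the log2 ratio of the miR-99 and miR-100 family (0.39 as reported) became −0.079, 0.094 and 0.015, and that of the miR-125 family (0.13) −0.34, −0.17 and −0.25. For the clusters it became 0.16, 0.33 and 0.25 for miR-99a (0.63), −0.20, −0.032 and −0.11 for miR-100 (0.27) and −0.32, −0.15 and −0.23 for miR-99b (0.15). For the members it became −0.37, −0.20 and −0.28 for miR-125b-1-5p, −0.30, −0.13 and −0.21 for miR-125a-5p, −0.20, −0.032 and −0.11 for miR-100-5p, −0.42, −0.25 and −0.33 for miR-99b-5p, and 0.14, 0.31 and 0.23 for miR-99a-5p. Under each of these scalings 0 of 6 members were at least 2-fold higher in PMM, as were 0 of 5 at a mean of at least 100 RPM. There were 2 of 10 with no filter and 2 of 6 with a limit of 1.5-fold. The background at these settings was 11.4%, 14.6% and 12.4% under the scalings in that order, 20.9% at 100 RPM, 12.6% with no filter and 40.0% at 1.5-fold. Without the 10 highest entries in the total, miR-99 and miR-100 held 1.23% of LDM and 1.24% of PMM, and miR-125 held 2.30% and 1.93%. Equal totals, a pseudocount of 0.1 RPM and both arms turned no direction. No paired analysis was possible because each muscle had 1 library. With 3 to 69 reads per 3p member in LDM, depth limits the 3p comparisons, and 1 library per muscle leaves the spread between animals unmeasured for all members.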
